A study of Saccharomyces cerevisiae with 22 samples.

Results

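The comparison described here was that of Sus1 binding after heat in yeast cells lacking Spt8 and in wild-type cells. It drew on 6 of the 22 samples of the series, 3 replicates of each strain by the labels, whose ChIP-exo reads were summarised in 1 list of peaks per strain. The spt8Δ list held 17390 regions and the wild-type list 17694, out of 106828 regions in the 6 lists of the series. Members were chosen by strain and temperature from the labels and not by any measured value.

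ChIP-exo is chromatin immunoprecipitation followed by exonuclease trimming, so that the ends of the sequenced fragments lie close to the crosslinked base. Both strains were of the BY4741 background (mating type a, with the alleles ura3-Δ0, met15-Δ0, his3-Δ1 and leu2-Δ0) and carried Sus1 with a C-terminal MYC tag (SUS1-MYC::HIS3), and the mutant also carried spt8::KanMX4. Cells of both groups were grown in YPD at 25 °C and moved abruptly to 37 °C for 15 min, so that both groups were heated and neither was an unheated control. The other 16 samples were the same strains without heat, an spt7-1180 strain (an spt7 deletion by its titles) with and without heat, and an untagged strain for which no peak list was used here.

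Sus1 is a small subunit of the deubiquitinating module that the co-activator complex SAGA shares with the related complex SLIK, and it is also part of TREX-2, which links transcription to export of mRNA at the nuclear pore. Spt8 contacts the TATA-binding protein and is found in SAGA but not in SLIK, which in addition carries a shortened Spt7. In cells without Spt8, Sus1 could thus be carried by SLIK, by TREX-2 or by SAGA lacking that subunit. The paper treats the strain as one that has SLIK and no SAGA, and which complexes were present was not tested here. Heat shock activates the factor Hsf1, which binds heat-shock elements, repeated GAA and TTC units, upstream of chaperone genes, and the factors Msn2 and Msn4, which bind stress response elements upstream of general stress genes. The comparison asks how the removal of a SAGA-specific subunit altered the placement of Sus1 under heat.

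Each region has a summit, the base with the most signal, and a fold enrichment, the deposited ratio of signal to the list's own local background. The lists were of different depth. Wild-type folds ran from 1.07 to 39.6 (median 3.49) and spt8Δ folds from 1.22 to 14.2 (median 2.46), and the lowest background implied by the deposited columns was 5.98 reads in wild type and 28.8 reads in spt8Δ. Median peak height was 28.0 reads in wild type and 83.0 reads in spt8Δ, and median width was 49 bp and 72 bp. At the lowest background of each list a peak needed a fold of 2.01 in wild type and 1.47 in spt8Δ to be listed, and 20.4% of the summits gained in spt8Δ (2570 of 12600) lay under the wild-type limit, beside 15.8% of the matched spt8Δ summits (757 of 4790). Folds are therefore printed for some sites but were not compared between lists, and a lower spt8Δ fold is not read as weaker binding. A percentile is used in their place, the rank of a peak's fold as a percentage of its list, with tied folds given their mean rank. It is rounded to 3 digits, so that a printed 100 stands for the uppermost peaks of a list. With 1 list per strain there was no replicate check, no difference between lists was tested, and intervals are 95% Wilson intervals (for a difference of shares, the normal approximation) that cover counting error only. SPT8, SUS1 and LEU2 had no summit upstream or in the coding region in either list, so the lists could not check the deletion.

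A heat-shock element is shown first. In the mutant list a summit lay within 100 bp of it at 13 of the 14 chaperone genes that have one. The search was for GAANNTTCNNGAA or TTCNNGAANNTTC, which are each other's reverse complement and so cover both strands, in the 500 bp before each start codon. The letters below are 29 bp of the sacCer3 genome (RefSeq R64), 5′ to 3′ on the strand of the gene, with the 13 bases of the element in capitals.

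HSP42: aagttctgGAAGGTTCGCGAAttgagaac
AHA1: tcacaatgGAATTTTCTAGAAgaaaaaac
HSP78: ttgttattTTCCAGAATGTTCtagaagtg
KAR2: atagaaccTTCTGGAAATTTCacccggcg
HSP104: atatatttTTCCAGAATTTTCtagaaggg
SIS1: tatgaacgTTCCAGAAACTTCtggaaaaa
HSP60: acctcgtgGAATTTTCCAGAAaaccaaat
FES1: ttggactgGAATCTTCTGGAAgttttttg

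These elements lie at chr4:806375-806403 (HSP42), chr4:892566-892594 (AHA1), chr4:974470-974498 (HSP78), chr10:381119-381147 (KAR2), chr12:88313-88341 (HSP104), chr14:619884-619912 (SIS1), chr12:665192-665220 (HSP60) and chr2:444844-444872 (FES1). The first 6 had a summit closer to the element in the spt8Δ list than in the wild-type list, HSP60 had a summit at 22 bp in wild type and 32 bp in spt8Δ, and FES1 at 37 bp and 39 bp. The element was found before 89 of 6002 protein-coding genes (1.48%) and before 14 of the 35 heat-shock and chaperone genes (40%).

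Genes of the heat-shock and chaperone list held Sus1 upstream more often, and at higher percentiles, in the spt8Δ list than in the wild-type list. Of the 35 genes, 21 (60%, 43.6 to 74.4) kept a summit within the 500 bp upstream of the start codon, 2 lost it, 8 gained one and 4 had none in either list. Over all 6002 genes the same window gave 1416 genes kept (23.6%), 1270 lost (21.2%), 996 gained (16.6%) and 2320 with none. The list thus went from 23 to 29 genes with an upstream summit while all genes went from 2686 to 2412. Without heat the list went from 16 genes in wild type to 22 in spt8Δ, and all genes from 2383 to 2507, so that this increase in number was also present at 25 °C. With spt8Δ peaks held to the wild-type fold limit, the net gain of the list after heat was only 2 genes. Genes whose strongest upstream summit lay in the top decile of its list (percentile 90 and above) went from 3 to 15 of the 35, and from 281 to 364 of all genes. In the other lists of the series the top-decile number of chaperone genes was 0 in wild type and 4 in spt8Δ at 25 °C, and 1 and 4 in spt7-1180 at 25 °C and 37 °C. After heat, without summits near a tRNA gene or in a neighbouring coding region (left out after the values were seen), the top-decile number went from 3 to 14 in the list and from 143 to 186 over all genes.

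Of the cytosolic Hsp70 genes, SSA1 and SSA4 were in the top decile of the mutant list. SSA1, a major cytosolic Hsp70, had its strongest upstream summit at percentile 80.8 in wild type and 99.3 in spt8Δ. SSA2, its close relative, was at 61.9 and 86.6. SSA4, the heat-induced Hsp70, had no summit in wild type and one at 99.3 in spt8Δ, with a fold of 7.0. Without heat the wild-type list had one for SSA4, at 43.1. These genes were ranked higher in the mutant list or had a summit there alone. SSA3 and SSB1 had none in either list, and SSB2, an Hsp70 of the ribosome exit, had a summit in wild type only.

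Hsp90 genes and their partners followed. HSC82, the constitutive Hsp90, was at 16.5 in wild type and 98.9 in spt8Δ, and the summit stood 40 bp before the start codon in the first list and 131 bp in the second. HSP82, the heat-induced Hsp90, was at 86.8 and 97.7. Among the Hsp90 co-chaperones, CPR6 was at 36.2 and 96.4 and STI1 at 62.3 and 73.6. SBA1 was at 24 and 97.8, but its summits in both lists lay within 200 bp of the tRNA gene YNCK0008W. The co-chaperones HCH1 and AHA1 had an upstream summit in spt8Δ alone, at percentile 91.6 and 62.2, while CDC37 had none in either list.

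Hsp40 proteins pass substrates to Hsp70, and their genes differed among themselves. SIS1 was at 67.8 in wild type and 99.1 in spt8Δ, whereas YDJ1 was at 86.6 and 5.43, and the mitochondrial MDJ1 was at 96.6 and 53.8. APJ1 was at 49.7 and 13. FES1, which frees nucleotide from Hsp70, was at 98.7 and 97.5, with summits 2 bp apart. SSE1, an Hsp110, was gained at 84.3 and its relative SSE2 was lost.

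Aggregate handling and small heat-shock genes also went in both directions. HSP42, a small heat-shock protein that gathers misfolded proteins, was at 87.4 in wild type and 99.3 in spt8Δ. BTN2 and CUR1, which sort misfolded proteins, were at 57.1 and 99.2, and at 82.7 and 98.7. HSP104, the disaggregase, was at 46.3 and 33.2. HSP26 was at 72.9 and 9.96, and HSP12 was gained at 7.92, so that the last 3 genes were in the lower part of the mutant list.

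Organelle chaperones completed the list. KAR2, the Hsp70 of the endoplasmic reticulum, was gained at 98.0, and ERO1, an oxidase of the same compartment, at 24.7. SSC1, the mitochondrial Hsp70, was at 36.3 and 95.7, and HSP78, the mitochondrial disaggregase, at 48.2 and 93.3. HSP60 and HSP10 form the mitochondrial chaperonin, and HSP60 was at 91.4 and 53.9 while HSP10 was gained at 86.1. The co-activator gene MBF1 was at 35.9 and 83.3, and HSP30, a stress-induced membrane protein, had none in either list. Of the 21 genes with a summit in both lists, 14 had the higher percentile in spt8Δ, against 757 of 1416 genes (53.5%) in all. The median of the 21 was 62.3 in wild type and 95.7 in spt8Δ, beside 57.1 and 59.6 over all kept genes.

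**Figure D1:**
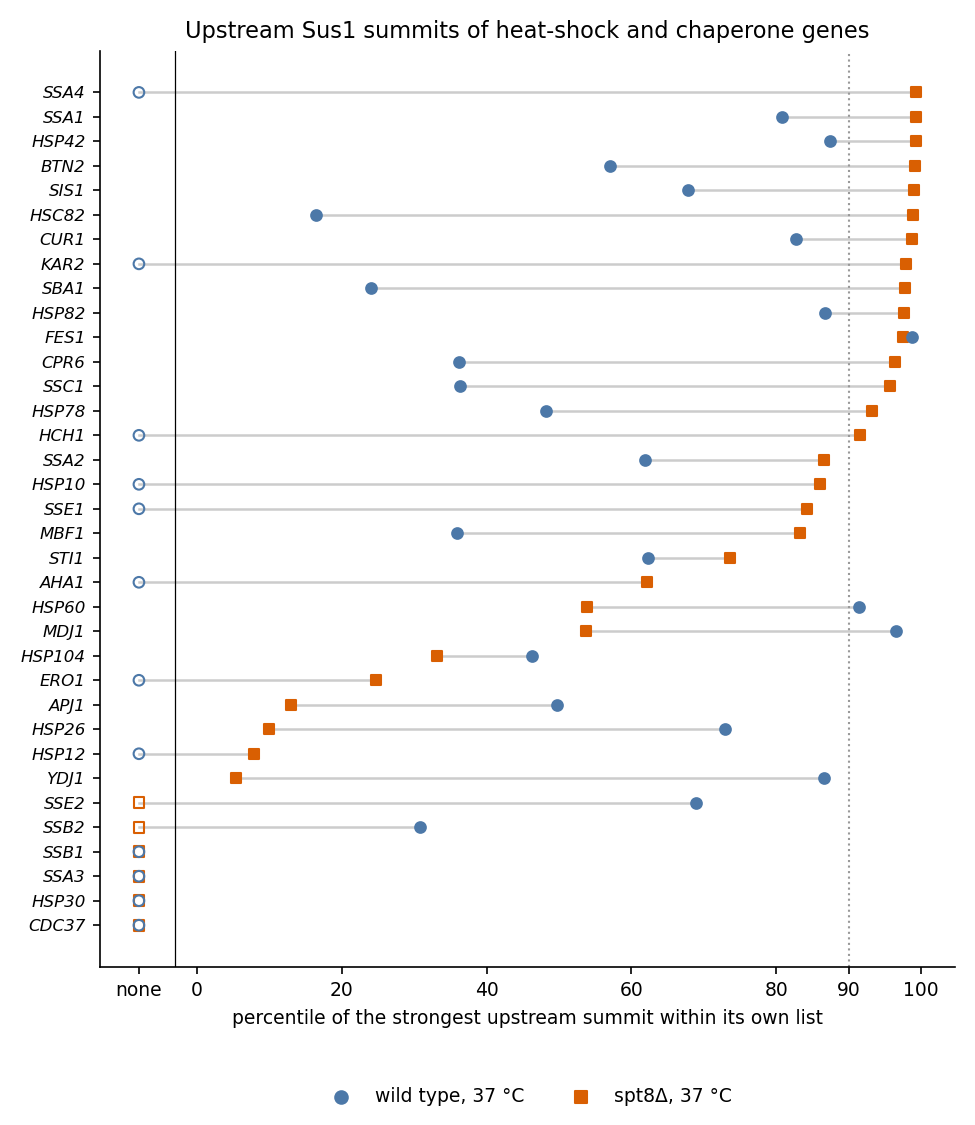
Percentile within its list (horizontal axis, from 0 to 100, where the strongest peaks lie) of the strongest Sus1 summit within 500 bp upstream of the start codon of each heat-shock and chaperone gene, in wild type and spt8Δ after heat, with 1 pooled list per strain and no error. In the top decile stood 3 genes in wild type and 15 in spt8Δ, and YDJ1, HSP26 and MDJ1 had the largest falls among the genes of the list kept in both.

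The chaperone summits also had different positions. In wild type the 28 upstream summits of the list had a median distance of 257 bp before the start codon, and 10 of them (35.7%) lay between 350 and 100 bp, beside 47.3% of the upstream summits of all genes. In spt8Δ the median was 235 bp and 31 of 37 (83.8%) lay there, beside 46.2% for all genes. That window was chosen after the values were seen. Only 6 of the 21 kept genes had summits within 50 bp of each other, beside 689 of 1416 (48.7%) of all kept genes. The summit of SSA1 stood 340 bp before the start codon in wild type and 215 bp in spt8Δ, that of HSP42 443 bp and 209 bp, and that of HSP78 406 bp and 240 bp, while that of BTN2 stood 97 bp and 404 bp before it. Some of these upstream summits lay inside the coding region of a neighbour. In wild type this held for HSP78 (YAP6), STI1 (BUB3) and SSE2 (NPL4), and in spt8Δ for MDJ1 (YFL015C).

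**Figure D2:**
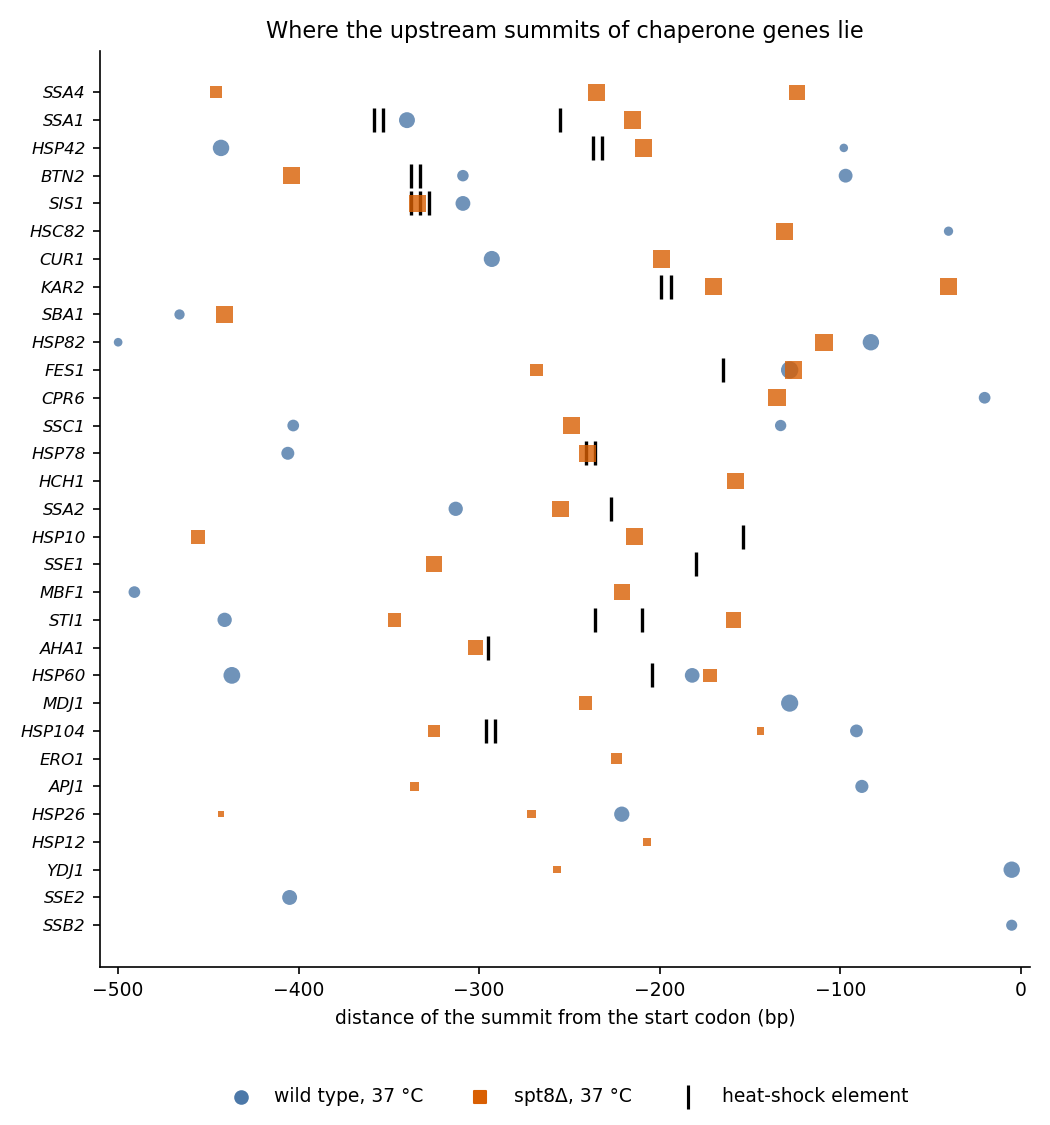
Position of every upstream summit of the heat-shock and chaperone genes relative to the start codon (bp), in wild type (circles) and spt8Δ (squares), larger at a higher percentile, with the heat-shock elements of the 14 genes that have one. Between 350 and 100 bp before the start codon lay 10 of 28 summits in wild type and 31 of 37 in spt8Δ.

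Relative to the element itself, 6 of the 14 chaperone genes (42.9%) had a wild-type summit within 100 bp and 13 (92.9%) had one in spt8Δ. SSE1 was the exception, with its nearest spt8Δ summit at 145 bp. The nearest summit of HSP42 stood 134 bp away in wild type and 23 bp in spt8Δ, and that of HSP78 165 bp and 1 bp. AHA1 had its nearest wild-type summit at 710 bp and its nearest spt8Δ summit at 7 bp, and KAR2 at 318 bp and 24 bp. HSP104 was at 200 bp and 29 bp, although its percentile was lower in spt8Δ. SSA1, at 13 bp and 40 bp, BTN2, at 24 bp and 66 bp, and HSP60 were nearer in wild type, so that a closer summit was not seen at every gene. At 25 °C the count was 4 in wild type and 8 in spt8Δ, and in spt7-1180 it was 2 at 25 °C and 8 at 37 °C.

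The other 75 genes with the element included neighbours that share a window with a chaperone gene, such as EFB1 beside SSA1 and LST8 beside SIS1. A summit lay within 100 bp in 20 of them (26.7%) in wild type and in 27 (36.0%) in spt8Δ, of which 14 were in both lists, 6 in wild type alone and 13 in spt8Δ alone. In spt8Δ alone the best ranked was the summit between YGR210C and ZPR1, 4 bp from the element at percentile 99.6. The upstream window of ZPR1 also had a summit at 99.6 in spt8Δ at 25 °C. RPN4, which codes for the activator of the proteasome genes, had a summit 5 bp from the element in wild type at percentile 77.2 and one at 56 bp in spt8Δ at 96.8. These genes were picked by rank after the values were seen. The element was present before 2.33% of all kept genes, 0.787% of lost and 1.91% of gained genes. Other letter patterns stood before similar shares of each set. TATAAA or its complement TTTATA stood before 61.9% of kept, 60.8% of lost and 60.2% of gained genes, and before 60.5% of all genes. The stress response element AGGGG or CCCCT stood before 34.3%, 34.3% and 32.1%, and before 34.1% of all genes.

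In their coding regions the chaperone genes carried Sus1 in both strains. A coding summit was kept by 29 of the 35, lost by 1 (MBF1) and gained by 5, and the number of coding summits was 135 in wild type and 124 in spt8Δ. Over all genes 3865 kept a coding summit (64.4%), 775 lost it (12.9%), 461 gained one (7.68%) and 901 had none. The coding summits of all genes numbered 14122 in wild type and 14102 in spt8Δ. Ranked by the lower percentile, the first coding summit found in both lists was in HSP82, at fold 13.8 and percentile 99.9 in wild type and fold 12.3 and percentile 100 in spt8Δ, 13 bp apart. The strongest coding summits of SSA1 that had no partner within 50 bp were 72 bp apart, at percentile 99.8 in wild type and 99.7 in spt8Δ. This gene was thus ranked high in both lists and counted as lost and gained by position. Reads of SSA1 and SSA2, and of HSC82 and HSP82, can be shared because these pairs are nearly identical in sequence.

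Transfer RNA genes held the top of the mutant list. These short genes are transcribed by RNA polymerase III, and they occur throughout the chromosomes. Within 200 bp of the 275 tRNA genes, 247 (89.8%) had a summit in both lists, 3 in wild type only, 19 in spt8Δ only and 6 in neither. The median percentile of the 247 was 93.4 in wild type and 99.1 in spt8Δ, and 191 of them were ranked higher in spt8Δ. In the top decile were 144 tRNA genes in wild type and 226 in spt8Δ. Of the 100 strongest summits, 39 lay near a tRNA gene in wild type and 89 in spt8Δ, while those in coding regions went from 49 to 6. The untagged strain had no list here, and the part of untagged background in these summits was not tested.

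The summits near SUF4 were 1 bp apart at folds of 19.1 and 12.1, at percentile 100 in both lists. IMT4 had none in wild type and one at percentile 99.8 in spt8Δ, and the 3 lost genes, TRN1, IMT3 and YNCD0029C, had wild-type percentiles of 40.8, 64.6 and 26.7. Summits on the upstream side of a tRNA gene numbered 220 in wild type and 245 in spt8Δ, inside the gene 36 and 22, and on the downstream side 109 and 117. With heat or without, 250 to 269 of the 275 tRNA genes had a summit in the other 4 lists. Summits near tRNA genes were 2.01% of the wild-type list and 2.16% of the spt8Δ list, in 1.08% of the genome.

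Among 76 small nucleolar RNA genes, which guide the modification of ribosomal RNA, 16 (21.1%) had a summit in both lists. In wild type only it was found at 10 (13.2%) and in spt8Δ only at 21 (27.6%). Upstream of all genes, in windows of another length, the shares were 23.6%, 21.2% and 16.6%, and the difference was not tested. SNR128 and SNR73 were gained at percentiles of 98.0 and 97.7, while SNR74 was lost from 96.0. Replication origins (352) had 29 kept, 46 lost (13.1%) and 25 gained (7.1%), and more lost than gained was also the case over all genes. Long terminal repeats (384) had 13 kept (3.39%), 39 lost (10.2%) and 19 gained (4.95%), again with more lost than gained. None of the 64 centromere features had a summit in either list. Summits in Ty elements or long terminal repeats numbered 59 in wild type and 31 in spt8Δ, a difference of −0.155 percentage points (−0.261 to −0.0496), and reads from such repeated sequences may be placed at more than one copy.

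By exact place, the lists shared a minority of their summits. A wild-type summit had an spt8Δ summit within 50 bp in 4788 of 17694 cases (27.1%, 26.4 to 27.7), and 14.5% of the genome lay that close to one. The other 12906 were lost by position. An spt8Δ summit had a wild-type partner in 4790 of 17390 cases (27.5%, 26.9 to 28.2), with 14.8% of the genome that close, and 12600 were gained. Stronger summits were shared more often. The share was 20.7% (18.9 to 22.7) in the lowest decile of the wild-type list and 38.7% (36.5 to 41.0) in the top decile, and in spt8Δ 22.7% and 39.7%. Over the 4788 matched sites the Spearman correlation of the percentiles was 0.169, and it was 0.101 over the 4547 sites away from tRNA genes, Ty elements and long terminal repeats. Sites of 1 list share a library pool, and the correlation is a description across sites. In both top deciles were 208 matched sites, with 463 in the wild-type top decile alone and 479 in the spt8Δ top decile alone.

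The summits lay more often in coding regions in spt8Δ, by a small margin that turned when fewer peaks were used. Coding regions held 78.8% of wild-type and 80.3% of spt8Δ summits, in 70.1% of the genome, a difference of 1.44 points (0.597 to 2.29), but among the 5000 strongest peaks per list it was −2.06 points. Within the coding region cut into 3 equal parts, the first part held 24.4% and 23.2%, the middle 26.4% and 27.6%, and the last 28.0% and 29.5%. Space between genes held 17.7% and 16.3%, in 24.5% of the genome. Convergent regions, between 2 gene ends, held 459 summits in wild type and 358 in spt8Δ, a difference of −0.535 points (−0.851 to −0.22). Tandem regions held 9.03% and 8.4%, and divergent regions, between 2 gene starts, 6.07% and 5.82%. The strongest 1000 summits gave another split, with 741 coding, 111 intergenic and 122 near tRNA genes in wild type and 623, 141 and 220 in spt8Δ.

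**Figure D3:**
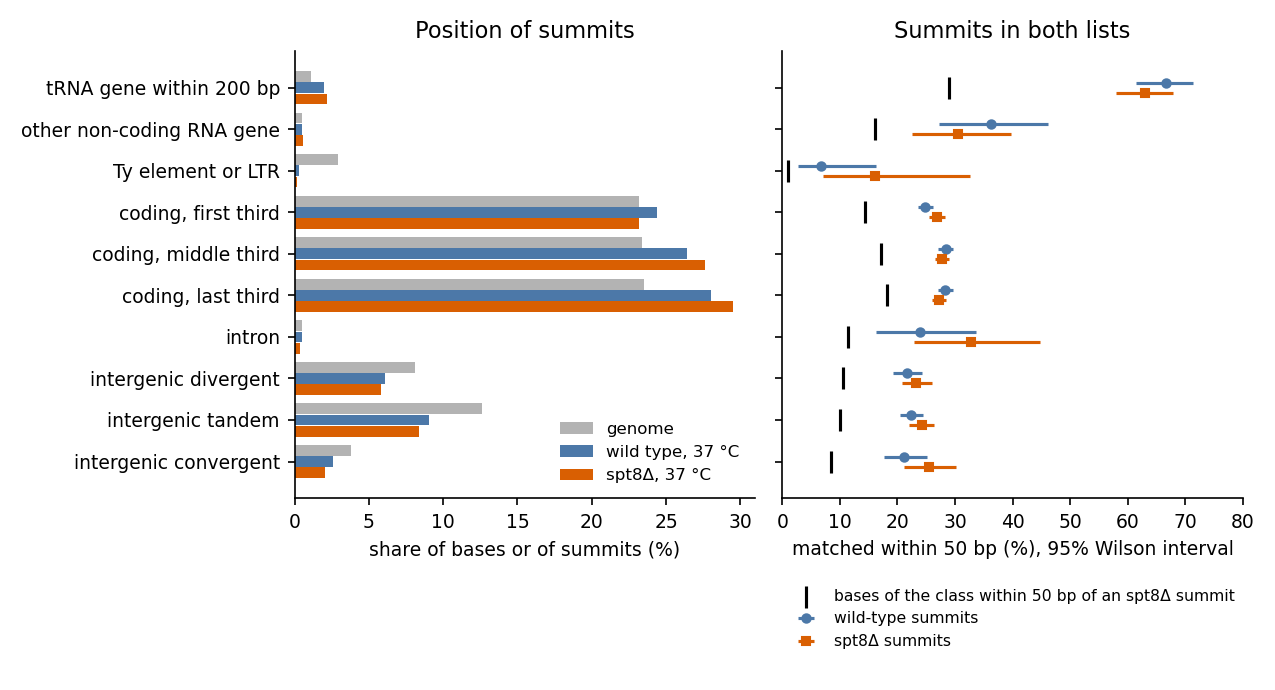
Left, share of each list's summits (percent) in each position class beside the class's share of the genome; right, share of the summits of each class with a summit of the other list within 50 bp (percent, circles wild type, squares spt8Δ, bars 95% Wilson intervals) beside the share of the class's bases that lie so close to an spt8Δ summit. Wild-type summits near tRNA genes were matched in 66.6% of cases with 29.0% of that class covered, and coding summits in 27.2% with 16.5% covered.

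Matching also differed by class. Of the wild-type summits near tRNA genes 66.6% had a partner, where 29.0% of the bases of the class were that close to an spt8Δ summit. For coding summits the values were 27.2% and 16.5%, and for intergenic summits 22.0% and 9.92%. Around the start codon the lists differed in the last 200 bp before it. Between 200 and 100 bp before the start codon there were 517 summits in wild type and 391 in spt8Δ (ratio 0.756), and in the last 100 bp 549 and 419 (0.763), beside a ratio of 0.983 for the whole lists. Between 300 and 200 bp the counts were 677 and 621 (0.917). The median distance of upstream summits was 292 bp in wild type and 310 bp in spt8Δ. Inside the gene, the bin from 200 to 299 bp after the first base of the start codon held 845 and 690 summits (0.817), so that the lower number was not limited to the upstream side. As a share of each list, the ratio in the 200 bp before the start codon was 0.773.

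**Figure D4:**
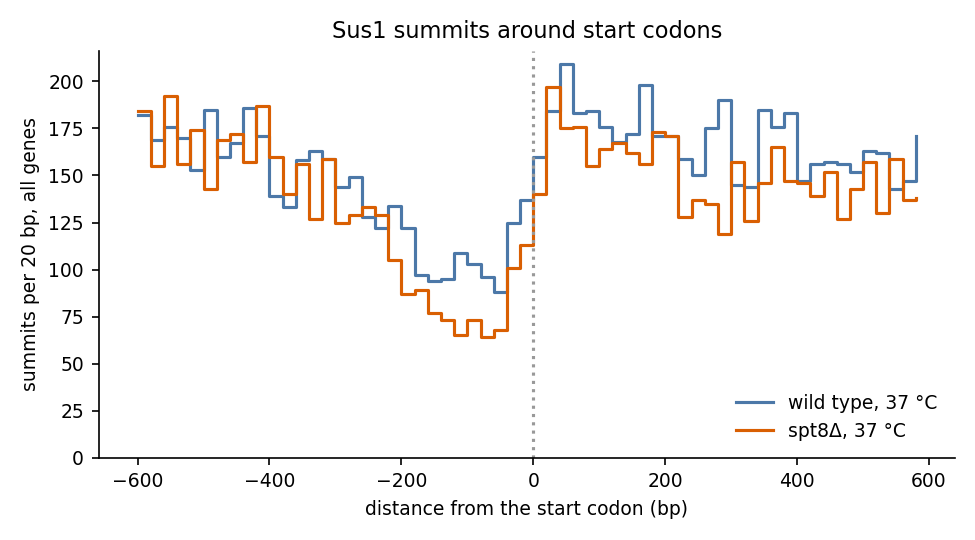
Number of Sus1 summits by distance from the start codon (bp, in bins) in wild type and spt8Δ after heat, over all genes. In the last 200 bp before the start codon both 100-bp bins hold fewer spt8Δ than wild-type summits, 391 beside 517 and 419 beside 549.

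The strongest summits between genes, leaving out those near tRNA genes and repeats, are shown for the first kept, lost and gained site. SSA4, the fourth of the gained sites, is shown as a heat-induced chaperone gene. The letters are 29 bp of sacCer3 around the summit on the forward strand, with the 11 bases at the summit in capitals.

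HXT3 kept: tttctctgtGATAATCCGCGaccgagagt
CDC14 lost: gtgtgtgtgTGTGTGTGTGTgtgtgtgtg
ZPR1 gained: ccctctggaGTTTTCTAGAAtattctagc
SSA4 gained: agaagttccTAGAACCTTATggaagcacc

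They lie at chr4:1165003-1165031 (between HXT3 and SVF1), chr6:210360-210388 (between CDC14 and PTR3), chr7:915009-915037 (between YGR210C and ZPR1) and chr5:364340-364368 (between RPS8B and SSA4). The lost site is an alternating run of G and T, and how reads of such a run were placed was not tested. The gained site before ZPR1 contains the heat-shock element described above.

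Upstream summits kept at high percentiles belonged to genes of several kinds. HXT3, a low-affinity glucose transporter, was at fold 39.6 and percentile 100 in wild type and fold 7.27 and percentile 99.4 in spt8Δ, 1 bp apart. CIN2 was at 99.5 in both lists, with both summits inside the coding region of its neighbour HSP82. TRX1, a cytosolic thioredoxin, was at 98.8 and 99.4, the second inside the coding region of its neighbour PDC1. MUD1, a subunit of the U1 snRNP, was at 98.7 and 99.1, with summits 7 bp apart. VPS55 (100 and 99.2), YHR210C (100 and 98.3), TEC1 (98.0 and 99.0) and FES1 made up the 8 genes. TEC1, a factor of filamentous growth, had its 2 summits 427 bp apart, so that it kept a summit by gene and not by place.

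The 8 genes lost from the highest wild-type percentiles were led by CDC14, the phosphatase of mitotic exit, with fold 17.3, percentile 100 and the nearest spt8Δ summit 351 bp away. YIL163C (99.5), YJL047C-A (99.3), TIM9 (99.3), YCK3 (98.9), RPL8A (98.9), ADY3 (98.5) and ARG2 (98.1) followed, the last tied with ULS1. In spt8Δ at 25 °C, CDC14 was at 99.7, YJL047C-A at 99.0, TIM9 at 96.1, YIL163C at 89.2, ADY3 at 84.0 and RPL8A at 77.2. YCK3 and ARG2 had no upstream summit in that list. In wild type at 25 °C CDC14 was at 30.9. TIM9, a chaperone of the mitochondrial intermembrane space, had its summit 36 bp before the start codon. The summits of YIL163C, RPL8A, ADY3 and ARG2 lay inside the coding regions of their neighbours SUC2, GUT1, GUD1 and PSF2. A lost gene could still have Sus1 nearby, since RPL8A had an spt8Δ summit at 112 bp and ARG2, an enzyme of arginine synthesis, one at 20 bp, just outside the 500-bp window. Of all lost genes 27 (2.13%), and of gained genes 19 (1.91%), were such cases at the edge of the window.

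The genes gained at the highest spt8Δ percentiles were YGR210C and ZPR1 (99.6, 1 shared summit), SSA4 (99.3), YHK8 (98.5), TIR4 (98.4), SNG1 and YPP1 (98.4, 1 shared summit) and DIP5 (98.4). ZPR1 codes for a chaperone of translation factor eEF1A, TIR4 for a cell wall mannoprotein and DIP5 for an amino acid permease. The ZPR1 summit had a fold of 8.11 and the SSA4 summit one of 7.0. The nearest wild-type summit stood 330 bp from the first and 470 bp from the second.

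General stress genes of the Msn2 and Msn4 list had summits about as often as all genes. Of 40 genes, 9 kept an upstream summit (22.5%, beside 23.6% of all genes), 9 lost it (22.5%, beside 21.2%) and 5 gained one (12.5%, beside 16.6%). All 9 kept genes had the higher percentile in spt8Δ, with a median of 6.87 in wild type and 87.1 in spt8Δ. Over all kept genes 53.5% were higher in spt8Δ, with medians of 57.1 and 59.6. DDR48 was at 2.29 and 94.4, SPI1 at 6.32 and 87.1 and the glycerol dehydrogenase gene GCY1 at 6.87 and 80.1. The polyubiquitin gene UBI4 was at 90.9 and 98.5. MSN4 itself was lost from 97.2. GND2 was gained at 99.3, next to the tRNA gene YNCG0046W and 4 bp from a heat-shock element. A wild-type summit stood 87 bp away, outside the window, and the tRNA gene itself kept a summit, at 38.8 and 99.3. Without heat GND2 was at 99.8 in wild type and 96.8 in spt8Δ. In the other mutant of the series it was at 99.3 without heat and 99.5 after heat. GND2 was thus gained only relative to the heated wild-type list. In coding regions the top-decile number went from 16 to 6 in the list and from 1063 to 913 over all genes. The net of −4 genes depended on the length of the lists, since with peaks of q under 1e-05 or the 5000 or 10000 strongest it was 5, 6 and 6. The same settings turned the net of the glycolysis list from −2 to 3, 1 and 2.

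Genes for the glycolytic enzymes kept a summit in 8 of 17 cases (47.1%, 26.2 to 69.0), lost it in 3 (17.6%) and gained it in 1 (5.88%). Over all genes the shares were 23.6%, 21.2% and 16.6%. TDH3, glyceraldehyde-3-phosphate dehydrogenase, was at 3.78 in wild type and 95 in spt8Δ. CDC19, pyruvate kinase, was at 88.1 and 91.1, with summits 4 bp apart, and TPI1, triose phosphate isomerase, at 88.7 and 61.2, with summits 5 bp apart. ADH1, alcohol dehydrogenase, was at 17.8 and 46.1, with summits 3 bp apart. Near-constant places thus went with both higher and lower ranks.

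Ribosomal protein genes kept an upstream summit in 47 of 137 cases (34.3%, 26.9 to 42.6), lost it in 25 (18.2%) and gained it in 34 (24.8%), beside 23.6%, 21.2% and 16.6% of all genes, and 5 and 7 of them were in the top decile. For the large subunit the numbers were 24, 14 and 20 of 81, and for the small subunit 23, 11 and 14 of 56. The net of 6 and 3 genes gained became 0 and −2 with spt8Δ peaks held to the wild-type fold limit. RPL41B was at 57.1 and 96.5, RPS30A was gained at 97.7, and RPS3 was at 93.8 and 5.19. RPL11A was at 25.0 and 83.0, with summits 22 bp apart, RPS26A at 76.2 and 46.8, and RPL11B had none. Many of these genes exist as near-identical pairs, between which reads can be shared. Mitochondrial ribosomal protein genes had 15 kept, 9 lost and 8 gained of 54, and ribosome biogenesis genes 19, 23 and 17 of 91, a net of −6 that became 2 with q under 1e-05 and 4 with the 5000 strongest peaks.

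The 12 genes of RNA polymerase II subunits had no upstream summit kept, 6 lost and 3 gained. Beside this list and the others of this paragraph stand the shares over all genes, 23.6% kept, 21.2% lost and 16.6% gained. RPB9 was lost from 94.4 and RPB5 from 88.7, with RPB2 (55.2), RPB3 (54.0), RPB10 (12.2) and RPB8 (3.8), and RPB11 (83.3), RPC10 and RPB4 were gained. The net of −3 of this list became −1 with q under 1e-05 and with the 5000 strongest peaks. It was −4 with spt8Δ peaks held to the wild-type fold limit. Subunit genes of SAGA and SLIK had 5 kept (23.8%), 5 lost (23.8%) and 1 gained (4.76%) of 21. Those of TFIID and the TATA-binding protein had 5 (27.8%), 5 (27.8%) and 1 (5.56%) of 18. Those of TREX-2 and its partners had 3, 3 and 3 of 12 (25.0% each). The net of −4 of the SAGA and SLIK list became 0 with q under 1e-05 and 2 with the 5000 strongest peaks, and the net of −4 of the TFIID list −1 and 2. The proteasome list had 12 kept, 7 lost and 6 gained of 35. Its kept genes had a median percentile of 81.4 in wild type and 36.9 in spt8Δ, with 4 of 12 higher in spt8Δ. Among all kept genes 53.5% were higher in spt8Δ, with medians of 57.1 and 59.6. RPN4, given above, was ranked higher in spt8Δ.

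Genes regarded as SAGA-regulated had 8 kept (33.3%), 4 lost (16.7%) and 6 gained (25.0%) of 24. The shares over all genes, 23.6%, 21.2% and 16.6%, stand beside this list and those that follow. The 8 kept SAGA-regulated genes had median percentiles of 37.4 in wild type and 18.2 in spt8Δ, with 4 higher in spt8Δ. Over all kept genes the medians were 57.1 and 59.6. In coding regions the top-decile number of the SAGA-regulated genes went from 11 to 3, and that of all genes from 1063 to 913. Oxidative phosphorylation genes had 9, 5 and 9 of 39, a net of 4 that was −4 with a 1000-bp window, nuclear pore genes 8, 7 and 4 of 33, hexose transporter genes 4, 3 and 3 of 19, and translation factor genes 7, 5 and 5 of 27. Ergosterol synthesis genes had 5 kept, 1 lost and 5 gained of 25, and 70 coding summits in wild type beside 50 in spt8Δ. All genes had 14122 and 14102 coding summits. Core histone genes had 3, 2 and 2 of 11. Of single genes the study discussed, GAL1, the galactokinase, had no upstream summit in wild type and one at 17.8 in spt8Δ. ARG1, argininosuccinate synthase, was at 27.1 and 25.2 with summits 328 bp apart, ACT1, actin, was lost from 41.9, BRL1 from 77.7, and NUG1 was at 3.34 and 9.19, inside the coding region of its neighbour YND1. SPB1 had none upstream and 6 and 10 coding summits. Among the marker genes of the strains, MET17 was at 95.8 and 99.3 with summits 5 bp apart, both within 200 bp of the tRNA gene YNCL0037W, URA3 was lost from 57.1, and SPT7 had 10 and 7 coding summits. Both strains carry the deletion alleles ura3-Δ0 and met15-Δ0 (MET17 here). How much of the 2 upstream windows remains in them was not checked, so these summits are not read as binding at intact genes.

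**Figure D5:**
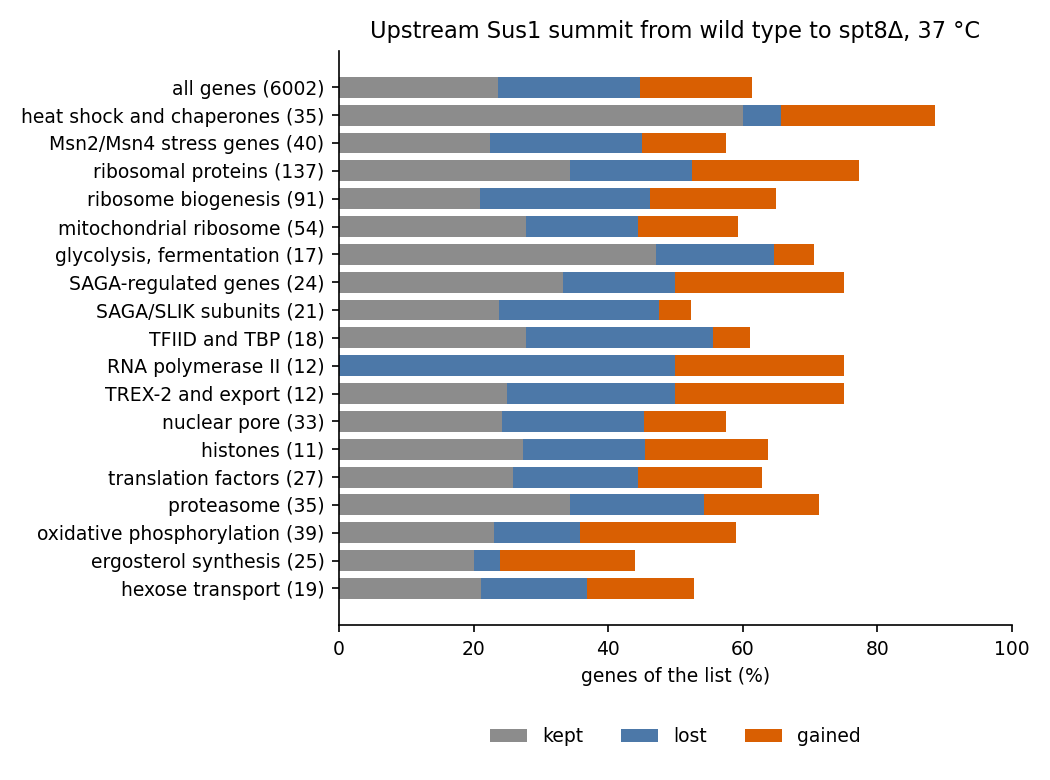
Share of the genes of each list (percent) with an upstream summit kept, lost or gained from wild type to spt8Δ after heat, beside all 6002 genes. The heat-shock and chaperone list has 60% kept, beside 23.6% of all genes. The RNA polymerase II list has no gene of 12 kept, with an interval up to 24.2%.

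The number of summits per coding region differed in most genes. Of 6002 genes, 2033 had the same number in both lists, 1851 more in spt8Δ and 2118 fewer, with 72 genes at least 5 higher and 38 at least 5 lower. GCN1, an activator of the kinase Gcn2, went from 16 to 28 and NUP157, a nuclear pore subunit, from 3 to 15. PDC2 went from 3 to 13 and RIC1 from 2 to 10, and SEC16 from 4 to 11, a gap shared by REA1, DYN1, DAP2 and STE5. YOR1, a drug transporter, went from 13 to 4, LTE1 from 11 to 3, USO1 from 15 to 8 and MSB1 from 9 to 2. HSP78 went from 12 to 6, a gap shared by UBR1, TRK1, LPX2, HMG2, NUP188 and AXL1. These numbers depend on the length of the gene and are not an amount of Sus1, and the median peak width of the lists differed, as given above.

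Sites found in both heated lists were also found more often in the other lists. Of the kept wild-type sites 32.1% had a summit within 50 bp in wild type at 25 °C, of the lost 20.8% and of the gained 25.6%, where 14.1% of the genome was that close to one. In spt8Δ at 25 °C the shares were 29.9%, 20.7% and 25.0% (genome 13.9%). In spt7-1180 they were 37.0%, 22.2% and 29.7% at 25 °C (15.1%), and 43.1%, 26.2% and 35.2% at 37 °C (16.8%). The order of the sets was the same in each of the 4 lists, and lost sites were the least often found. The GC content from 50 bp before to 50 bp after the summit was 40.6% for kept, 39.3% for lost and 40.3% for gained sites, and 38.3% for the genome. By chromosome, the ratio of spt8Δ to wild-type summits ran from 0.811 on chromosome 1, with 302 and 245, to 1.04.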

How the data were processed

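Members and gene lists were chosen with earlier results of these data known, and the 350 to 100 bp window and the heat-shock element count after values were seen. Per the labels, reads were base-called with CASAVA 1.7 and mapped to sacCer3 with BWA 0.6.2 (the study's methods name another BWA version). How peaks were called, against which control and from which pooled replicates is not given in the sources used here. The authors deposited 1 peak list per strain and temperature, in the narrowPeak layout, with the fold enrichment (a ratio over local background) and, for each peak, −log10 of p and of q. The deposited −log10 q served to rank and to filter. Labels give 3 replicates, whereas the study's methods give 2, and the source name wild type for every sample, so that the strain was taken from the titles. The titles call the other mutant an spt7 deletion and the methods spt7-1180.

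The summit was the peak start plus the summit offset. The lowest background and the height in reads were solved from each peak's fold and −log10 p with a Poisson model and a pseudocount of 1. Summits within 50 bp counted as the same site. A gene kept, lost or gained a summit in the 500 bp before its start codon or in its coding region, by the RefSeq R64 annotation of 6002 nuclear genes. Named genes were, upstream and away from tRNA genes, Ty elements and long terminal repeats, the 8 lost and 8 gained at the highest percentile and the 8 kept with the highest lower percentile, for coding regions the 5 largest changes in each direction, the genes discussed by the study and the strain markers, the top lost and gained member of each list, and the 5 strongest sites of each class, of which the text gives a part. Other genes were named from the lists after their values were seen. No test across features was made, and depth in reads per sample is not used here. Alternatives were stricter lists, other matching and other windows. Python 3.11.15, numpy 2.4.6, pandas 2.3.3, scipy 1.17.1 and matplotlib 3.10.9 were used, and the matching code was tested on simulated data.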

Additional observations from a re-analysis of the deposited data

Results flagged for a closer look

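In 4 gene lists the number of genes with an upstream summit went in opposite directions from wild type to spt8Δ at the 2 temperatures. The Msn2 and Msn4 list changed by −4 at 37 °C (18 to 14) and by 9 at 25 °C (9 to 18). The glycolysis list changed by −2 (11 to 9) and by 4 (2 to 6). The oxidative phosphorylation list changed by 4 (14 to 18) and by −4 (18 to 14). The 37 °C change of that list was 0 with a window of 300 bp or one ended at the neighbouring gene, and −4 with a window of 1000 bp, and those of the Msn2 and Msn4 and the glycolysis lists turned positive with stricter lists. The RNA polymerase II list changed by −3 (6 to 3) and by 3 (1 to 4). All genes changed from 2686 to 2412 at 37 °C and from 2383 to 2507 at 25 °C. With 1 pooled list per condition these differences were not tested.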

How the results depend on the processing

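No paired analysis was possible because each list pools its replicates, and for the same reason no replicate could be left out. The share of wild-type summits matched in spt8Δ (27.1%) was 25.9% with peaks of q under 1e-05, 14.2% and 20.4% with the 5000 and 10000 strongest peaks (4.18% and 8.36% of the genome covered), 28.1% by peak midpoint, 26.3% without tRNA genes, Ty elements and long terminal repeats, 15.3% and 42.8% within 25 and 100 bp, 40.4% by an overlap of 1 bp and 14.7% by a reciprocal overlap of 50%. In the same order the share of spt8Δ summits matched in wild type (27.5%) was 21.1%, 14.2%, 20.4%, 28.6%, 26.8%, 15.6%, 43.5%, 39.9% and 15.0%. With spt8Δ peaks held to the wild-type fold limit (chosen after the data were seen) the shares were 22.8% and 28.7%. Genes with an upstream summit kept (1416) were 913 with q under 1e-05, 234 and 625 with the 5000 and 10000 strongest peaks, 568 and 3301 with windows of 300 and 1000 bp and 935 with the window ended at the neighbouring gene. With the 5000 strongest, upstream lost genes were 536, upstream gained 571, coding kept 1449 and coding gained 765, and coding gained genes were 768 with q under 1e-05 and 695 with the 10000 strongest.

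The coding share difference of 1.44 points became −0.324 with q under 1e-05, −2.06 with the 5000 and −0.15 with the 10000 strongest peaks. The intergenic difference became 0.561 with q under 1e-05 and 0.46 with the 5000 strongest, and the difference for Ty elements and long terminal repeats 0.14 with the 5000 strongest. The cause was not tested.

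For chaperone genes the net change of 6 was positive under each alternative run. It was 11 with the 5000 strongest peaks, 2 with the 1000-bp window and 2 with the fold limit. Kept genes (21) were 5, 12 and 12 with the 5000 strongest, the 10000 strongest and the 300-bp window. Lost genes (2) were 4 with q under 1e-05, 4 and 5 with the 5000 and 10000 strongest, 1 by midpoint and 5 with the fold limit. Gained genes (8) were 15 with the 5000 strongest and 4 with the 1000-bp window. Chaperone genes with a wild-type summit near the element (6) were 2 with the 5000 strongest, and the range over the alternatives was 2 to 9 in wild type and 10 to 14 in spt8Δ. The ratio before the start codon ranged from 0.739 to 0.889, and the rank correlation was 0.134 by −log10 q. At the wild-type depth a weak site may be missing from the list, so that a gained summit under a fold of 2.01 was not shown to be absent in wild type.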
